A study of Mus musculus with 6 samples.

Results

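Collagens are the triple-helical proteins of the extracellular matrix. The collagen genes described here are the deposited gene symbols made of Col, a number, the letter a and a number, such as Col1a1. Of the 24346 symbols, 44 had this form: 11 genes of fibrillar collagens, 8 of basement membrane collagens and 25 of other collagens. Expression had been measured by RNA sequencing in CT26, a colorectal tumor line of the mouse. The 3 parental samples were CT26.mMR1 cells, which overexpress mouse MR1, an antigen-presenting molecule related to MHC class I, after retroviral transduction. The 3 M8 samples came from a clone of these cells obtained by limiting dilution after exposure to the mutagen N-ethyl-N-nitrosourea (ENU). It was among the mutants that raised the response of a T cell reporter line, and was picked from these by its surface MR1. Both groups thus carry the MR1 transgene. M8 is 1 clone, and effects of its mutations cannot be told apart from variation between clones of the line. The study calls the samples biological replicates without saying how far apart they were grown, and the p-values below measure the spread between these samples.

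A collagen molecule is made of intertwined chains, each encoded by its own gene. Fibrillar collagens, such as types I, III and V, assemble into the fibrils that give tissue its tensile strength. Basement membrane collagens, mainly type IV, form the sheet-like networks under epithelia and around vessels. Chains are modified and folded in the endoplasmic reticulum, exported, trimmed outside the cell and cross-linked. In the intestine most fibrillar collagen is made by fibroblasts.

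The deposited values were FPKM, fragments per kilobase of transcript scaled to the number of mapped fragments, which allow levels of genes of different length to be compared. They summed to 593635 to 626241 FPKM in the parental samples and 622529 to 630264 FPKM in the M8 samples. Read totals were not used here, but steps in the low values gave an estimate of 23.9 to 26.6 M reads in the parental and 19.1 to 21.8 M reads in the M8 samples. The M8 libraries were thus estimated to be the shallower ones, and 1 read in a transcript of 5 kb was worth 0.00752 to 0.0105 FPKM. As a check of the labelled tissue, 2 of 11 colon epithelium markers had a mean of at least 1 FPKM, and Krt18 was the highest with 32.5 FPKM in parental cells and 36.4 in M8. The other, Krt20, had 15.1, 17.2 and 19.8 FPKM in parental and 12.7, 12.3 and 10.8 FPKM in M8 samples and was lower without overlap (log2 fold change -0.50, limma adjusted p = 0.00438). The epithelial genes Epcam, Cdh1, Krt19, Cdx2 and Lgr5 were listed at 0 in all 6 samples. Summed epithelial markers ranged from 39.7 to 56.4 FPKM in parental and from 47.5 to 49.4 FPKM in M8 samples. Of 10 fibroblast markers 3 reached 1 FPKM, Thy1 and Postn were listed at 0, and the sums were 41.9 to 48.6 FPKM in parental and 39.5 to 45.9 FPKM in M8 samples. The expressed fibroblast markers moved in both directions without overlap: Pdgfrb was higher in M8 (21.4 and 25.6 FPKM, limma adjusted p = 0.00787), and Dcn (18.6 and 14.1 FPKM, limma adjusted p = 0.0245) and Pdgfra (3.44 and 2.29 FPKM, limma adjusted p = 0.00903) were lower. None of the 6 endothelial or 6 leukocyte markers reached 1 FPKM. Their sums stayed within 0.235 to 0.625 FPKM for the endothelial genes, with Cdh5 and Emcn at 0, and within 0.0101 to 0.0497 FPKM for the leukocyte genes, with Adgre1, Csf1r and Cd3e at 0. Parental replicate 1 had the lowest FPKM sum and the lowest Krt18, 24.5 FPKM against 34.7 to 38.4 FPKM in the other samples. Calls of collagen genes that change without this sample are given with and without it. In such bulk samples fewer cells of a type and less RNA per cell cannot be told apart.

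Of the 44 collagen genes, 14 were expressed, which is taken here as a mean of at least 1 FPKM over the 6 samples. These were 4 of the 11 fibrillar genes (Col1a1, Col1a2, Col3a1 and Col5a1), 4 of the 8 basement membrane genes (Col4a1, Col4a2, Col4a5 and Col18a1) and 6 of the 25 others (Col6a1, Col6a2, Col6a3, Col8a1, Col16a1 and Col20a1). The last group included 3 of 6 collagen VI chains, 2 of 9 fibril-associated (FACIT) collagens and 1 of 3 short-chain network collagens. No expressed gene was among the 4 transmembrane collagens or the 3 anchoring fibril and remaining collagens. With a minimum of 0.5 FPKM the count was 17, and with 5 FPKM it was 12. The levels were dominated by one gene. Col1a2, a chain of type I collagen, alone held 46.9% to 48.3% of all collagen FPKM and ranked 174 among all symbols by mean, while all collagens together held 0.153% to 0.170% of the FPKM of a sample.

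**Figure D1:**
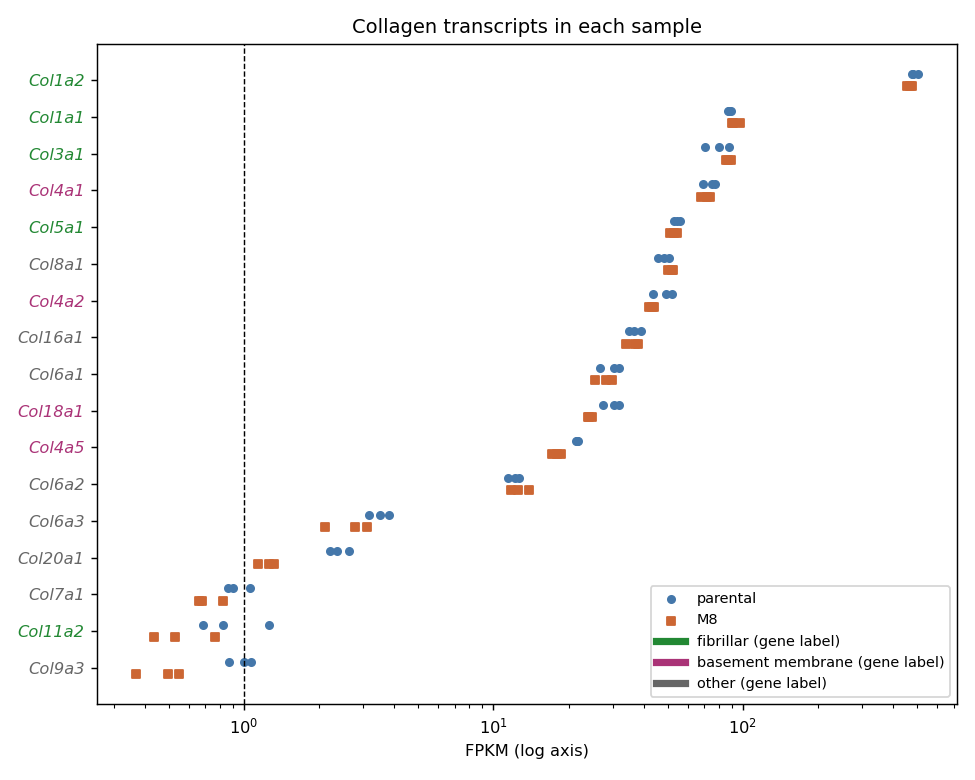
FPKM of the 14 expressed collagen genes and the 3 highest below 1 FPKM in each of the 3 parental and 3 M8 samples, on a log10 axis, ordered by mean, with the class given by the colour of the gene label. Col1a2 stands above all others near 477 FPKM, and the parental and M8 points do not overlap for 6 of the 14 genes, Col18a1, Col4a5 and Col20a1 among them.

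The mRNA called lower in M8 was that of the basement membrane chains Col4a5, Col18a1 and Col4a2 and the minor collagens Col20a1 and Col6a3. No collagen gene was called higher. The call of Col4a2 held in only 1 of 6 fits with 1 sample left out, and that of Col6a3 in 2 of 6. In limma's test of log2(FPKM + 1), adjusted by the Benjamini-Hochberg method over the 10597 genes with a mean of at least 1 FPKM and with a threshold of 0.1, 5 of the 14 expressed collagens were lower (35.7%) and 0 were higher. Over all genes tested, 16.5% were lower, 21.2% were higher and 37.7% were called in either direction. At an unadjusted limma p under 0.05, 5 collagens were lower and 0 higher. Of the 4 fibrillar genes, 0 passed, also at an unadjusted limma p under 0.05, whereas 3 of 4 basement membrane genes and 2 of 6 others were lower. With 1 sample left out, 3 collagens were lower without parental replicate 2, M8 replicate 1 or M8 replicate 2, and 4 without any one of the other samples. The 3 basement membrane genes passed together only without parental replicate 1, and 2 of them passed in the other 5 fits. Of the collagens, 1 was higher without parental replicate 1 (Col3a1) and 1 without parental replicate 3 (Col8a1). The median log2 fold change was 0.018 for the fibrillar genes, -0.21 for the basement membrane genes, -0.054 for the others and 0.0069 over all genes tested. The fibrillar median was below 0 with TPM, quantile normalization and upper-quartile scaling (-0.019, -0.066 and -0.043). It was also below 0 without a filter on low values (-0.022), without parental replicate 3 (-0.0052) and without M8 replicate 2 (-0.0088). The median of the other collagens was 0.023 with a mean of at least 5 FPKM and -0.0023 without M8 replicate 1. That of the basement membrane genes was -0.095 without a filter, which adds genes of very low level. The differences between the class medians were not tested.

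Before the values of the basement membrane genes, sequences upstream of or between starts are shown. The reason is that the chains of type IV collagen are encoded by pairs of genes that lie head to head on opposite strands. Col4a5 and Col4a6 form such a pair on chromosome X, with 1274 bases between the ends of the RefSeq genes, and only Col4a5 was expressed. The sequences are from RefSeq promoter entries of the GRCm38.p6 genome and are written 5′ to 3′. The windows of Col4a5, Col4a6 and Col18a1 are on the strand of the gene and end before its first annotated exon. Col4a1 and Col4a2 overlap at their 5′ ends, and the sequence given for them is the short stretch from one start to the other as the promoter entries give them, within both genes. The annotated gene Col4a1 begins further out than its entry. Capitals mark matches on either strand to the CCAAT box (CCAAT or ATTGG) or the GC box (GGGCGG or CCGCCC). Col18a1 is shown as the other gene of this class called lower in every setting tried.
Col4a5, chrX:141475169-141475369, plus strand: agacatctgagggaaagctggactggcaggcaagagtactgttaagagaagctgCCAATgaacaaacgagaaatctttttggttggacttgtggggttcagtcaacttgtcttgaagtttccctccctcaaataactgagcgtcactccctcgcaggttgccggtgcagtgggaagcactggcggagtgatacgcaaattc
Col4a6, chrX:141474096-141474326, minus strand: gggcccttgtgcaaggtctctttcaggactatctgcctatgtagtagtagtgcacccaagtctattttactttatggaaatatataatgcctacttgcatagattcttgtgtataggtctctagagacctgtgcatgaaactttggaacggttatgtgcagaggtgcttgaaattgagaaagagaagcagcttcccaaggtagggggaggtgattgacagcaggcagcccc
Col18a1, chr10:77166549-77166780, minus strand: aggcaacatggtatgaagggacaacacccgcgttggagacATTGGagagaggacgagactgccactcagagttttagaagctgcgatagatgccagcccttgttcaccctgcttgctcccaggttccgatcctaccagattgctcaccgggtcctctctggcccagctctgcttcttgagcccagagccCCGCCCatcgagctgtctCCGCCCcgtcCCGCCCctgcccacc
Col4a1 and Col4a2 from start to start, chr8:11312805-11312826, plus strand: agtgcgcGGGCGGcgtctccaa
The Col4a5 window of 201 bases held 1 CCAAT box and the Col4a6 window of 231 bases held none of these motifs, while the whole 250 bases upstream held 1 GC box for each of these genes. The Col18a1 window of 232 bases held 1 CCAAT box and 3 GC boxes, and another RefSeq entry of Col18a1, with a start further into the gene, held none of the motifs in its 250 bases. The 22 bases from the start of Col4a2 to that of Col4a1 held 1 GC box. In the whole 250 bases upstream, counting a gene with several entries if any of them matched, a CCAAT box was found for 13 of the 35 collagens with a RefSeq entry and a GC box for 21, against 33.8% and 32.7% of all 32851 promoters. The TATA box (TATAAA or TTTATA), which none of the printed windows held, was found for 5 of the 35 collagens and in 12.4% of all promoters. Among the expressed collagens, 6 of 13 had a CCAAT box, 8 had a GC box and 1 had a TATA box. These matches are descriptions of the letters, and the 9 collagens without an entry were not searched.

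Of the 3 collagen genes called in every setting that tested them, 2 were basement membrane genes, Col18a1 and Col4a5. Col18a1 encodes collagen XVIII, the precursor of the anti-angiogenic fragment endostatin, and lies on chromosome 10 from 77052178 to 77166530. Its FPKM was 27.5, 30.4 and 32.0 in the parental samples and 23.96, 24.1 and 24.9 in the M8 samples. All 3 M8 values were below the lowest parental value. The means were 29.9 ± 2.30 FPKM (SD, n = 3) and 24.3 ± 0.490 FPKM (SD, n = 3). This is a log2 fold change of -0.29 (standard error, SE, 0.058, 95% interval -0.42 to -0.16, limma adjusted p = 0.00664). Col4a5, whose human counterpart is mutated in Alport syndrome, lies on chromosome X from 141475370 to 141689236. It had 21.5, 21.9 and 21.6 FPKM in parental samples and 17.2, 18.6 and 17.9 FPKM in M8. The groups did not overlap, and the parental values lay within a narrow range. Col4a5 fell from 21.6 ± 0.197 FPKM to 17.9 ± 0.725 FPKM (SD, n = 3 in both groups), with a log2 difference of -0.26 (SE 0.047, 95% interval -0.37 to -0.16, limma adjusted p = 0.00396). Both genes passed the threshold in all 11 other settings and in all 6 fits with 1 sample left out.

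The genes Col4a1 and Col4a2, which encode the most widespread chains of type IV collagen, differed in their call: Col4a2 was lower and Col4a1 was not past the threshold. Col4a2 had 43.6, 49.3 and 51.8 FPKM in parental samples and 42.1, 43.9 and 43.2 FPKM in M8. Parental replicate 1 lay among the M8 values, so the groups overlapped. The log2 fold change of Col4a2 was -0.16 (SE 0.061, 95% interval -0.29 to -0.020, limma adjusted p = 0.0823). The call held in only 1 of 6 fits with 1 sample left out, the one without parental replicate 1 (limma adjusted p = 0.00861). Without any one of the other 5 samples its limma adjusted p was between 0.136 and 0.215. The call of Col4a2 was also lost without a filter on low values (limma adjusted p = 0.158) and without the variance trend (limma adjusted p = 0.127). It held in 8 of the 11 other settings. With TPM, quantile normalization and upper-quartile scaling its limma adjusted p was 0.0214, 0.0159 and 0.0210. Col4a1 had 69.3, 75.0 and 77.5 FPKM in parental and 68.1, 72.0 and 73.6 FPKM in M8 samples, and parental replicate 1 was again the lowest of its group. Its log2 fold change was -0.053 (95% interval -0.17 to 0.063, limma adjusted p = 0.472). With quantile normalization it was -0.14 (limma adjusted p = 0.0638), and all 4 basement membrane genes were then lower. RefSeq places Col4a1 and Col4a2 over each other at their 5′ ends. The libraries were stranded, but the sources used here do not state whether strand was used in counting, so reads of the shared end may have been assigned to either gene. The other members of this class were low. Col15a1, a relative of Col18a1, had 0.140, 0.115 and 0.181 FPKM in parental samples against 0.0532, 0.0402 and 0.0275 FPKM in M8, without overlap. Col4a3, Col4a4 and Col4a6 had means of 0.00593, 0.00646 and 0.00817 FPKM, which is about the worth of 1 read.

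**Figure D2:**
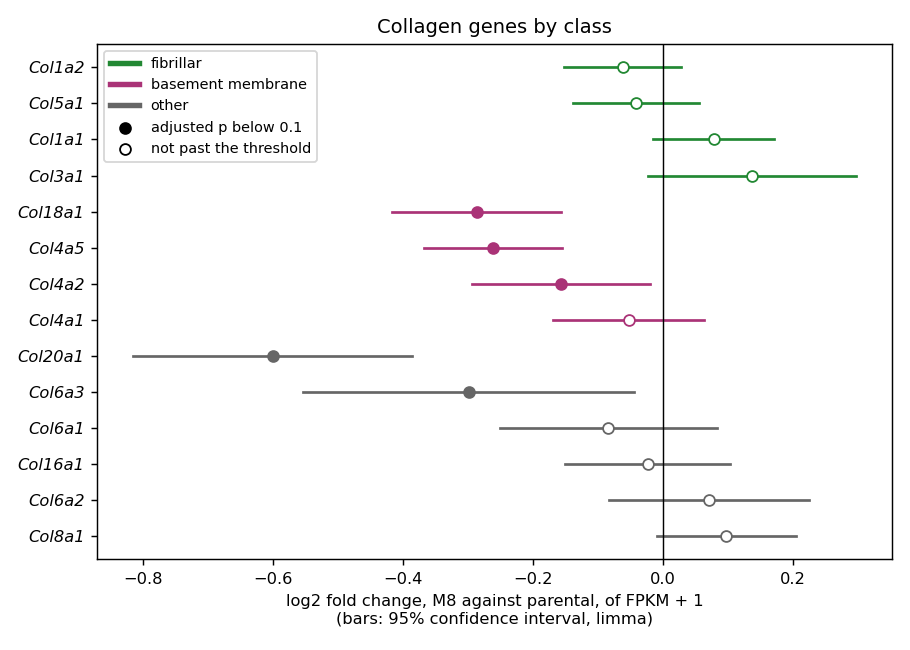
Log2 fold change of FPKM + 1, M8 against parental, for the 14 expressed collagens with 95% intervals, by class. Filled points passed a limma adjusted p of 0.1: 3 basement membrane genes and 2 other genes lie to the left of 0, and the intervals of all 4 fibrillar genes include 0.

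No fibrillar gene passed the threshold. Col1a2 had 480, 505 and 477 FPKM in parental samples and 456, 475 and 469 FPKM in M8, so that every M8 value was below the lowest parental value. Its log2 fold change was -0.062 (95% interval -0.15 to 0.027, limma adjusted p = 0.271). With TPM, quantile normalization or upper-quartile scaling it was called lower (limma adjusted p = 0.0845, 0.0135 and 0.0392). Col1a1, the other chain of type I collagen, had 87.5, 89.3 and 88.0 FPKM in parental samples and 91.5, 97.6 and 90.7 FPKM in M8. Here every M8 value was above the highest parental value. The log2 fold change of Col1a1 was 0.078 (95% interval -0.015 to 0.17, limma adjusted p = 0.188), and with quantile normalization it was -0.015. Col3a1, which forms mixed fibrils with type I collagen, had 87.9, 80.3 and 70.2 FPKM in parental and 87.1, 89.2 and 85.2 FPKM in M8 samples. Parental replicate 1 lay within the range of the M8 values. The log2 fold change of Col3a1 was 0.14 (95% interval -0.022 to 0.30, limma adjusted p = 0.178), and without parental replicate 1 it was 0.21 and past the threshold (limma adjusted p = 0.0296). Without parental replicate 3 it was 0.052 (limma adjusted p = 0.474), and with quantile normalization or upper-quartile scaling it was 0.051 or 0.076. Col5a1, a chain of the type V collagen that helps to start fibrils, had 52.8 to 56.1 FPKM in parental and 51.1 to 54.4 FPKM in M8 samples. Its log2 fold change was -0.042 (95% interval -0.14 to 0.055, limma adjusted p = 0.499). Its partner Col5a2 had a mean of 0.238 FPKM. The intervals of the 4 genes leave out changes of the size measured for Col4a5 and Col18a1 in the lower direction.

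Among the other collagens, Col20a1 and Col6a3 were lower in M8. Col20a1 encodes a fibril-associated collagen and lies on chromosome 2 from 180983323 to 181017545. It was the lowest of the expressed genes, with 2.63, 2.35 and 2.21 FPKM in parental samples and 1.26, 1.14 and 1.32 FPKM in M8. The groups were well apart. Its mean in M8 was 0.517 of the parental mean (2.40 ± 0.213 and 1.24 ± 0.0943 FPKM, SD, n = 3 each). The log2 fold change of FPKM + 1, which understates the change of so low a gene, was -0.60 (SE 0.095, 95% interval -0.81 to -0.39, limma adjusted p = 0.00240). Col20a1 passed the threshold in all 10 other settings that tested it and in all 6 fits with 1 sample left out. RefSeq places the noncoding gene Gm30797 over Col20a1, and the pseudogene Gm7775 over Col18a1, whose reads may have been counted with them.

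Collagen VI forms beaded filaments around cells, and its 3 expressed chains are Col6a1, Col6a2 and Col6a3. Col6a3 had 3.81, 3.50 and 3.18 FPKM in parental samples and 2.11, 2.79 and 3.12 FPKM in M8. The M8 values lay below the parental ones, but M8 replicate 3 nearly reached parental replicate 3. The log2 fold change of Col6a3 was -0.30 (SE 0.113, 95% interval -0.55 to -0.045, limma adjusted p = 0.0764). Only 2 of the 6 fits with 1 sample left out kept the call, those without parental replicate 3 (limma adjusted p = 0.0763) and without M8 replicate 3 (limma adjusted p = 0.0473). In the other 4 the limma adjusted p was between 0.119 and 0.235, and the log2 fold change of Col6a3 was -0.18 without M8 replicate 1 and between -0.33 and -0.25 in the rest. The call was also lost without a filter on low values (limma adjusted p = 0.162) and with quantile normalization (-0.21, limma adjusted p = 0.181). Col6a1 had 26.7 to 31.7 FPKM in parental and 25.5 to 29.9 FPKM in M8 samples, with a log2 fold change of -0.085 (95% interval -0.25 to 0.082, limma adjusted p = 0.421). Col6a2 had 11.4 to 12.6 and 11.7 to 13.9 FPKM, with a log2 fold change of 0.070 (95% interval -0.083 to 0.22, limma adjusted p = 0.469). Neither gene was past the threshold, and both groups overlapped. Col8a1, a short-chain collagen of vessel walls and the cornea, had 45.5, 48.0 and 50.5 FPKM in parental and 49.9, 51.7 and 52.5 FPKM in M8 samples. Its log2 fold change was 0.097 (95% interval -0.010 to 0.20, limma adjusted p = 0.157), and without parental replicate 3 it was 0.13 and past the threshold (limma adjusted p = 0.0708). Without parental replicate 1 it was 0.060 (limma adjusted p = 0.363), and with TPM, quantile normalization or upper-quartile scaling it was 0.061, 0.026 or 0.036. Col16a1, a fibril-associated collagen, had 34.9 to 39.1 FPKM in parental and 34.0 to 37.8 FPKM in M8 samples (log2 fold change -0.024, 95% interval -0.15 to 0.10, limma adjusted p = 0.784).

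Of the 14 expressed collagens, 6 had groups that did not overlap, which is 42.9% against 45.2% of all genes tested. The M8 values were the lower ones in 5 of the 14 genes (Col1a2, Col18a1, Col4a5, Col6a3 and Col20a1), which is 35.7% against 20.4% of all genes tested. They were the higher ones in 1 of the 14 (Col1a1), which is 7.14% against 24.8%. The exact two-sided permutation test of the means gave p = 0.1 for each of these 6 genes, the smallest p that 3 samples against 3 allow. The coefficient of variation between samples of a group ranged from 0.911% to 19.4% over the 14 genes, with a median of 5.17%.

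**Figure D3:**
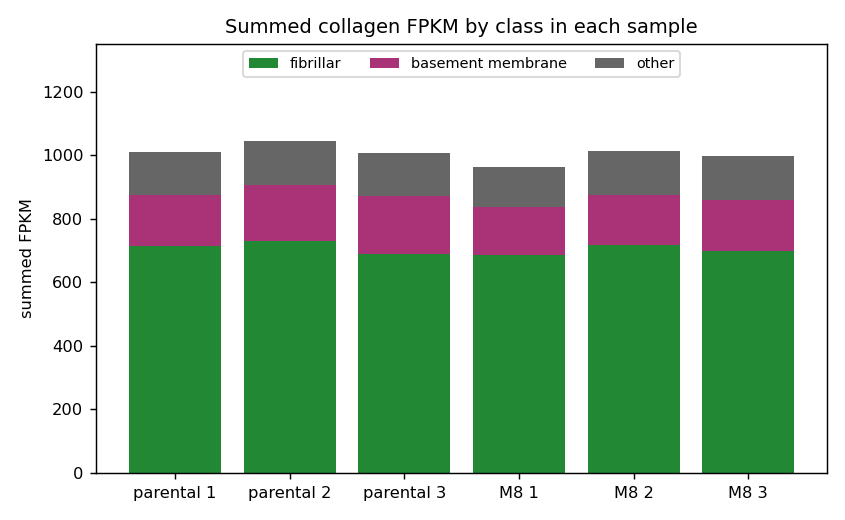
Summed FPKM of all fibrillar, basement membrane and other collagens. Each of the 3 parental and 3 M8 samples is a stacked bar on an axis that starts at 0. The basement membrane sums of M8 (151 to 160 FPKM) lie below those of the parental samples (162 to 183 FPKM), and the other classes overlap.

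Summed over each class, the basement membrane collagens were the ones whose groups separated. Their sum was 162, 177 and 183 FPKM in the parental and 151, 159 and 160 FPKM in the M8 samples, with means of 174 ± 10.9 and 157 ± 4.52 FPKM (SD, n = 3 each). The M8 mean was 0.90 of the parental mean, and Col4a1 and Col4a2 made up most of the sum. For the collagen IV chains alone the FPKM sums overlapped. They were 134.4, 146 and 151 FPKM in parental and 127, 134.4 and 134.7 FPKM in M8 samples. In FPKM the separation thus rested on Col18a1 as well. With TPM the collagen IV sums did not overlap, with 226, 238 and 241 in parental and 202, 214 and 216 in M8 samples. The fibrillar sum was 711 ± 20.3 FPKM in parental and 701 ± 15.5 FPKM in M8 (SD, n = 3 each), a ratio of 0.986. That of the other collagens was 135 ± 3.12 and 134 ± 6.77 FPKM (SD, n = 3 each), a ratio of 0.991. Both pairs of sums overlapped between the groups. Without Col1a2 the fibrillar sum was 224 ± 10.6 FPKM in parental and 234 ± 7.07 FPKM in M8 (SD, n = 3 each). This is a ratio of 1.05, and these sums overlapped too. Basement membrane genes thus made up 17.05% ± 1.09 of the collagen FPKM in parental and 15.8% ± 0.173 in M8 cells (SD, n = 3 each), and fibrillar genes 69.7% and 70.7%. No test was made of these sums, since a few genes determine them.

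The balance between chains of one collagen type was compared where both were expressed. The ratio of Col1a1 to Col1a2 was 0.182, 0.177 and 0.184 in parental and 0.201, 0.205 and 0.193 in M8 samples. For Col4a1 to Col4a2 it was 1.59, 1.52 and 1.496 in parental and 1.62, 1.64 and 1.70 in M8 samples. For Col6a1 to Col6a2 it was 2.61, 2.41 and 2.35 in parental and 2.17, 2.25 and 2.15 in M8 samples. In each of these 3 ratios the groups did not overlap, higher in M8 for types I and IV and lower for type VI. Over all pairs of genes with a mean of at least 1 FPKM and a value above 0 in every sample, the groups did not overlap in 43.3%, so such a separation is common in these data. The mean log2 ratio in M8 differed from the parental one by 0.14, 0.11 and -0.16 (exact two-sided permutation test, p = 0.1 for each and 0.1 after adjustment over the 3 ratios, the smallest this design allows). A ratio of 2 genes of a sample is free of the scaling of that sample. The pairs Col5a1 with Col5a2 and Col8a1 with Col8a2 were left out, because Col5a2 and Col8a2 had means of 0.238 and 0.0115 FPKM.

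**Figure D4:**
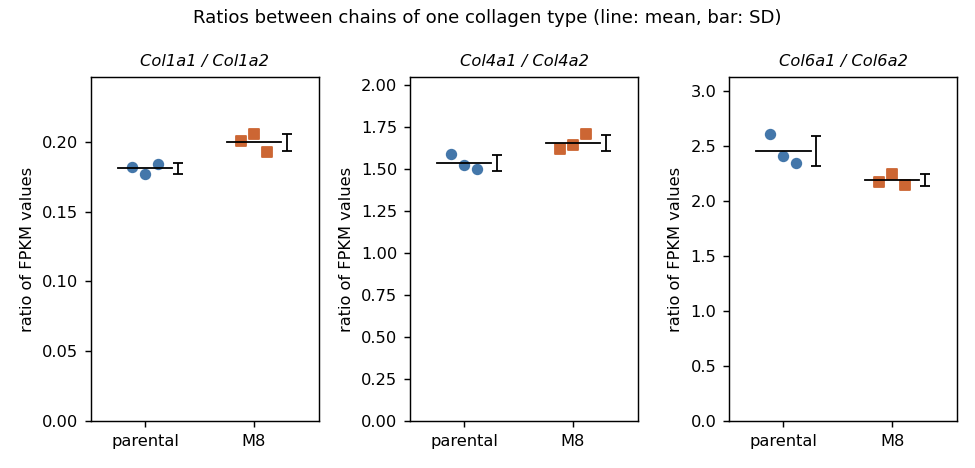
Ratio of FPKM values between chains of collagen types I, IV and VI in each sample, with the mean and SD of the 3 parental and 3 M8 samples and axes that start at 0. Each panel shows groups that do not overlap: M8 is higher for Col1a1/Col1a2 and Col4a1/Col4a2 and lower for Col6a1/Col6a2.

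Below the minimum lay 30 collagen genes. Of these, 7 had a mean from 0.1 to 1 FPKM, 17 a mean above 0 and below 0.1 FPKM, and 6 were listed at 0 in all samples (Col27a1 among the fibrillar genes, and Col6a6, Col9a1, Col19a1, Col25a1 and Col26a1 among the others). Over all symbols, 8254 were listed at 0 in every sample, while 0 of 88 genes used in every cell were. Col7a1, the collagen of the anchoring fibrils of skin, was just under the minimum with 1.05, 0.866 and 0.906 FPKM in parental and 0.676, 0.658 and 0.820 FPKM in M8 samples. Col11a2, a cartilage collagen, had 1.26, 0.682 and 0.822 FPKM against 0.529, 0.762 and 0.435 FPKM. Col9a3, a chain of the cartilage collagen IX, had 1.07, 0.998 and 0.868 FPKM against 0.549, 0.370 and 0.498 FPKM. The groups overlapped for Col11a2 and did not for Col7a1 and Col9a3. Without a filter on low values, Col9a3 (log2 fold change -0.43, limma adjusted p = 0.0118) and Col15a1 (-0.14, limma adjusted p = 0.0261) were called lower. Just inside the minimum was Col20a1, with a mean of 1.82 FPKM. Of the 24 genes below the minimum that were above 0 in some sample, 5 were lower in M8 without overlap (Col7a1, Col9a3, Col15a1, Col17a1 and Col23a1) and 1 was higher (Col9a2). These are 20.8% and 4.17% of the 24 genes, against 9.88% and 2.62% of the 5495 genes of that range. Col23a1 was listed at 0 in all M8 samples and had a mean of 0.0118 FPKM in parental samples, and Col9a2 had means of 0.0259 and 0.0557 FPKM. Such values are worth a few reads at most. The estimated depth was lower in the M8 libraries, and whether it bears on these values was not tested.

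The genes that make, export, trim, cross-link, degrade or bind collagens were read from 6 lists of 83 genes. Of the 49 tested, 14 were lower in M8 (28.6%) and 8 were higher (16.3%), against 16.5% and 21.2% of all genes tested, and their median log2 fold change was -0.045. The split moved with the scaling, to 2 higher and 21 lower with upper-quartile scaling.

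Among the 16 tested genes of chain modification and folding, 4 were higher (25%) and 2 lower (12.5%), near the 21.2% and 16.5% of all genes tested. This split depended on the setting: 3 were higher and 6 lower without parental replicate 1, 1 higher and 2 lower without M8 replicate 2, 2 higher and 4 lower with TPM, 0 and 4 with quantile normalization, and 0 and 5 with upper-quartile scaling. Over all 10597 genes the last of these settings gave 1470 higher and 2769 lower. The 2 lower ones were the lysyl hydroxylases Plod2 (26.0 and 19.7 FPKM in parental and M8 cells, log2 fold change -0.37, limma adjusted p = 0.0397) and Plod1 (69.2 and 57.3 FPKM, -0.27, limma adjusted p = 0.0127). Parental replicate 1 stood below its group for Plod2, with 20.8 FPKM against 30.6 and 26.6 FPKM. The Plod2 call was lost without parental replicate 2 (limma adjusted p = 0.109) or M8 replicate 1 (limma adjusted p = 0.135). It held in 10 of the 11 other settings and was lost without a filter on low values. The prolyl hydroxylase genes P4ha1 and P4ha2, chosen after their values were seen, also had their lowest parental value in replicate 1 and were called lower without it. Colgalt1, which attaches galactose to hydroxylysine, had 42.5 and 47.1 FPKM (log2 fold change 0.15, limma adjusted p = 0.0250) and was not called with quantile normalization or upper-quartile scaling. Of 6 export genes 1 was lower (16.7%, against 16.5% of all genes tested), Mia3, whose product TANGO1 loads collagen into transport carriers (31.7 and 28.6 FPKM, log2 fold change -0.14, limma adjusted p = 0.0278). Of 4 genes of propeptide removal 1 was lower and 1 higher (25% each, against 16.5% and 21.2% of all genes tested). Adamts14, a procollagen N-proteinase, was lower (4.08 and 3.06 FPKM, log2 fold change -0.32, limma adjusted p = 0.0241). Pcolce, an enhancer of C-propeptide cleavage, was higher (567 and 671 FPKM, log2 fold change 0.24, limma adjusted p = 0.00641).

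Outside the cell, 4 of 9 genes of cross-linking and assembly were lower (44.4%) and 1 was higher (11.1%). Of all genes tested, 16.5% were lower and 21.2% higher. Tgm2, a transglutaminase, fell from 32.1 to 24.1 FPKM (log2 fold change -0.40, limma adjusted p = 0.00748). Dcn, which encodes the fibril-binding proteoglycan decorin and is also in the fibroblast list, fell from 18.6 to 14.1 FPKM (-0.38, limma adjusted p = 0.0245). Fn1, the gene of fibronectin, a scaffold of matrix assembly, fell from 622 to 488 FPKM (-0.35, limma adjusted p = 0.000917). The gene called higher, named after its values were seen, was Bgn, which encodes biglycan (log2 fold change 0.33). Among 10 genes of breakdown and uptake, 5 were lower (50%, against 16.5% of all genes tested). The 2 higher ones (20%) were near the 21.2% of all genes tested. The collagenase gene Mmp13 fell furthest, from 4.40 to 1.96 FPKM (log2 fold change -0.86, limma adjusted p = 0.000563). The protease inhibitor genes Reck (4.28 and 3.05 FPKM, -0.38, limma adjusted p = 0.0150) and Timp1 (160 and 128 FPKM, -0.31, limma adjusted p = 0.0190) were lower as well, as were the protease inhibitor gene Timp2 (-0.27, limma adjusted p = 0.00288) and Mrc2, an uptake receptor for collagen (-0.22, limma adjusted p = 0.0454). The 2 genes called higher encode peptidases, Pepd (0.17, limma adjusted p = 0.0381) and Ctsl (0.12, limma adjusted p = 0.0892), and 0 were called higher with upper-quartile scaling. With 1 sample left out, Pepd lost its call without parental replicate 2, M8 replicate 1 or M8 replicate 2 (limma adjusted p = 0.119, 0.108 and 0.134), and Ctsl without parental replicate 1 or any one M8 replicate (limma adjusted p from 0.144 to 0.264). Mrc2 lost its call without parental replicate 2 or M8 replicate 1 (limma adjusted p = 0.137 and 0.148). Timp2, Mrc2, Pepd and Ctsl were named after their values were seen. Of 4 receptor genes, 1 was lower (25%, against 16.5% of all genes tested) and 0 were higher. This was Ddr1, a collagen-activated receptor tyrosine kinase (11.5 and 10.4 FPKM, log2 fold change -0.13, limma adjusted p = 0.0847). Its call held in 1 of 6 fits with 1 sample left out, the one without parental replicate 1. It was also lost without a filter on low values (limma adjusted p = 0.106), with quantile normalization (0.145) and with the replicate block (0.121).

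**Figure D5:**
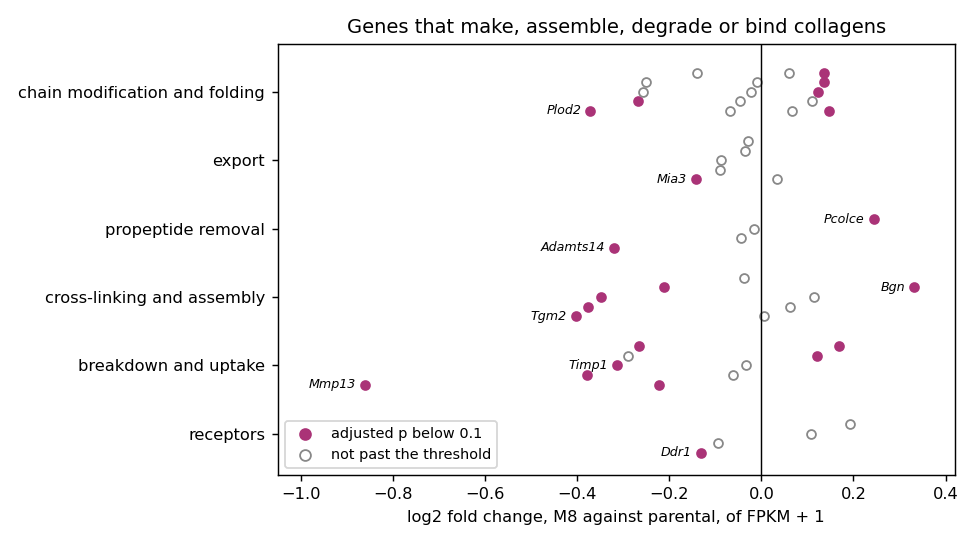
Log2 fold change of FPKM + 1, M8 against parental, for the 49 tested genes that make, assemble, degrade or bind collagens, by list. Filled points passed a limma adjusted p of 0.1: 14 genes lie to the left of 0, Mmp13 farthest, and 8 to the right, of which 2 pass with upper-quartile scaling.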

How the data were processed

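RNA of 3 parental and 3 M8 samples was sequenced from stranded mRNA libraries in 101-base single reads. The authors mapped the reads to mm10 and deposited FPKM values, 1 table per sample. The submitters' processing notes name TopHat2 2.1.1, Bowtie2 2.2.8, SAMtools 0.1.18 and Cuffdiff 2.2.1, and the annotation is not given in the sources used here. FPKM values are not counts, so limma 3.58.1 in R 4.3.3 was fitted (lmFit, eBayes with trend) to log2(FPKM + 1) of genes with a mean of at least 1 FPKM, with Benjamini-Hochberg adjustment over all of them and no covariate. A fold change on this scale understates that of low genes. Single ratios were compared with exact permutation tests. Read depth was estimated from steps in the values of low genes with 1 annotated transcript, 73.3% to 78.8% of which lay within 0.06 of whole reads, and FPKM gives no counting interval. Named are all collagens with a mean of at least 1 FPKM, the 3 highest below it, and the 3 largest changes past the threshold in each list, with others marked. The members and lists were chosen with earlier results of these data known. Positions and promoter sequences are from RefSeq for GRCm38.p6, the build of mm10. Alternatives were other pseudocounts, filters, scalings and thresholds, a fit without trend, a replicate block and leaving out each sample. Tables and figures were made with matplotlib 3.10.9, scipy 1.17.1 and pandas 2.3.3 in Python 3.11.15.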

Additional observations from a re-analysis of the deposited data

How the results depend on the processing

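The collagens lower in M8 numbered 3 to 6 in the alternatives, and Col4a5, Col18a1 and Col20a1 passed in every setting that tested them. Without a filter on low values the count was again 5, with Col9a3 and Col15a1 in place of Col4a2 and Col6a3. The count was 3 with a mean of at least 5 FPKM, which removes Col20a1 and Col6a3, and 3 with an adjusted p below 0.05. With 1 sample left out it was 3 to 4, and 0 to 1 collagens were higher (Col3a1 without parental replicate 1, Col8a1 without parental replicate 3), so fibrillar genes numbered 0 to 1 higher and the other class 0 to 1 higher and 1 to 2 lower. With TPM, quantile normalization or upper-quartile scaling 1 fibrillar gene (Col1a2) was lower. In the other class 0 genes were lower with a mean of at least 5 FPKM and 1 with quantile normalization, an adjusted p below 0.05 or the replicate block. The summed fibrillar FPKM had a log2 ratio of -0.059 with TPM against -0.021. The sign changed for Col1a1 with quantile normalization (-0.015) and for Col16a1 without parental replicate 2 (0.020) or M8 replicate 1 (0.019), and its lowest value with 1 sample left out was -0.061. Pathway genes called higher numbered 5 with TPM, 5 with quantile normalization, 2 with upper-quartile scaling, 5 with an adjusted p below 0.05 and 3 to 8 with 1 sample left out. Over all genes, higher and lower genes numbered 2250 and 1745, against 1656 and 2208 with TPM, 1820 and 1773 with quantile normalization and 1470 and 2769 with upper-quartile scaling, and 1609 to 2101 and 1157 to 1672 with 1 sample left out. The cause of these shifts was not tested.

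Same-numbered samples did not deviate together (r = 0.10, -0.106 and -0.033, across genes). Differently numbered samples gave r from -0.128 to 0.181. Deviations were taken from means of 3 samples, so these values cannot decide whether the numbers pair the samples. With the replicate block, 0 collagens were higher and 4 lower, Col6a3 being the one lost (limma adjusted p = 0.104), and 2171 genes in all were higher and 1688 lower. FPKM values give no counting error, and for collagens below 0.1 FPKM a few reads decide the value.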
